A study of Mus musculus with 7 samples.

Results

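The genes described here are the matrix metalloproteinases (Mmp), the Adamts proteases and their inhibitors, measured on 7 mouse expression arrays, 1 array per condition. They were chosen by name: every gene whose symbol is Mmp, Timp or Adamts followed by a number, together with Reck, each represented by the array row with the highest mean. That gave 32 of 13562 named genes, made up of 28 proteases and 4 inhibitors. Mmp25 met the rule although it was not on the list of 39 names drawn up for these genes, and 8 names of that list (Mmp8, Mmp10, Mmp15, Timp4, Adamts2, Adamts18, Adamts19 and Adamts20) are not analysed here.

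The series concerns the histone demethylase Utx, encoded by the X-linked gene Kdm6a, when somatic cells are reprogrammed. The V6.5 embryonic stem cells (ESCs) were either wild type (WT, Utx +/Y) or Utx knockout (KO, Utx -/Y). Mouse embryonic fibroblasts (MEFs) labelled V19-OSKM were profiled in both genotypes, without and with doxycycline (DOX), which switches on OSKM, the factors Oct4, Sox2, Klf4 and Myc. The seventh array held fibroblasts made from Nanog-/- ESCs and transduced with an OSKM lentivirus for 8 days. The labels give ESC medium for all samples. The MEF labels do not give the length of DOX treatment, the age of the embryos or how many animals were pooled. All values are the deposited log2 values, and a difference is the first condition minus the second on the log2 scale. A value at or below 7.34, the 40th percentile of all values, is called under the floor. A gene was counted as higher or lower when its 2 arrays were at least 2-fold apart and the higher value lay above the floor. No condition was repeated, so a difference between 2 arrays has no replicate check and no p-value.

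Metalloproteinases are zinc-dependent enzymes that are made as inactive precursors and cut collagens, proteoglycans and other proteins outside the cell. Mmps cleave collagens, gelatins and basement membrane proteins, and Adamts enzymes process procollagens, the large proteoglycans aggrecan and versican, and microfibrils. Timps bind the active site of the enzymes, and Reck is a glycoprotein anchored in the cell membrane that restrains several Mmps. Fibroblasts are a main source of both the enzymes and the inhibitors in connective tissue.

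The libraries limit what can be read from the labels. The probe set of Kdm6a read lower in the KO library in each context, with 9.12 (WT) against 7.97 (KO) among ESCs, 8.22 against 6.32 among untreated MEFs and 8.93 against 7.57 among MEFs given DOX. Pou5f1, which encodes Oct4, had 8.19 in untreated WT MEFs and 12.59 in those given DOX, but 11.26 in the library labelled KO without DOX and 5.12 in the one labelled KO with DOX. Both MEF libraries labelled KO thus went against their DOX labels in Pou5f1. In whole profiles, the one labelled KO with DOX correlated at 0.97 with WT MEFs without DOX and at 0.84 with those given DOX. The one labelled KO without DOX correlated at 0.92 with WT MEFs without DOX and at 0.86 with those given DOX. Both libraries are called by their labels below, and every direction drawn from them depends on those labels. All 11 fibroblast markers lay above the floor in WT MEFs without DOX, in both libraries labelled KO and on the Nanog KO array, and 4 of 11 in WT MEFs with DOX. Of 13 macrophage markers, 13 lay above the floor in WT MEFs without DOX, 11 on the Nanog KO array, 4 and 6 in the libraries labelled KO without and with DOX, and 1 in WT MEFs with DOX. All 11 pluripotency markers lay above the floor in both ESC libraries. The array median was 8.55 on the Nanog KO array and 7.68 to 7.84 on the other 6.

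Promoter sequences are shown for the members that were lower in Utx KO ESCs and have an entry in the RefSeq table of build GRCm38.p6, which held 19 of the 32 members and neither Mmp2 nor Adamts5. Each run is the 250 bases before the annotated start, 5′ to 3′ on the gene's strand. Capitals mark matches, on either strand, to TGANTCA (the element bound by the Fos and Jun proteins of AP-1), TATAAA or GGGCGG. The regions are chr9:7272264-7272513 on the plus strand for Mmp13, chr16:85803114-85803363 on the minus strand for Adamts1, chr11:118355412-118355661 on the minus strand for Timp2 and chr10:86300162-86300411 on the plus strand for Timp3.
Mmp13: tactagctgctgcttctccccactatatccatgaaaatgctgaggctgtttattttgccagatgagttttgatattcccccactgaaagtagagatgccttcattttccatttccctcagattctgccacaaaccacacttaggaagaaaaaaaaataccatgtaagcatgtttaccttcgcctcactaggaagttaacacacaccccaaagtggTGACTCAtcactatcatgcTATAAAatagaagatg
Adamts1: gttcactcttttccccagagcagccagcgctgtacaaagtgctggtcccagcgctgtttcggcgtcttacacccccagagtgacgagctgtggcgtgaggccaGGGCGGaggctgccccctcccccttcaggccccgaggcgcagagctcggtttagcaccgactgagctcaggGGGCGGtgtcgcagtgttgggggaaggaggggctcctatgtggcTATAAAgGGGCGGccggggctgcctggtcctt
Timp2: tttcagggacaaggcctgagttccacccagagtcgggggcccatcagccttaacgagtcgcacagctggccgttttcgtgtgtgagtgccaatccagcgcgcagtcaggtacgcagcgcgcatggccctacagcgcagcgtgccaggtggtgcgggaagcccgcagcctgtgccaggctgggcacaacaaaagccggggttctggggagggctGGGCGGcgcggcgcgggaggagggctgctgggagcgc
Timp3: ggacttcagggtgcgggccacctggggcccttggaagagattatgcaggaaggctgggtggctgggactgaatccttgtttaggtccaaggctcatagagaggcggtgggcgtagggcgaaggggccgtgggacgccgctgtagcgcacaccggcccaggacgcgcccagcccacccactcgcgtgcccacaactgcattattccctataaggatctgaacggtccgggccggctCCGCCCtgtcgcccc

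The Mmp13 window held a TGANTCA match starting 35 bases before the start and a TATAAA match 16 bases before it, and it had 1 CG dinucleotide. The Timp2 and Timp3 windows had 21 and 18 CG dinucleotides and 1 GGGCGG match each, and the Adamts1 window had 15 CG dinucleotides, 3 GGGCGG matches and a TATAAA match. The median over all 32851 promoter windows was 6 CG dinucleotides. Among the 19 members with an entry, TGANTCA occurred in 3, the chromosome 9 genes Mmp3, Mmp12 and Mmp13, and it occurred in 6.75% of all windows. GGGCGG occurred in 13 of the 19 members and in 32.7% of all windows, and TATAAA in 3 members and 12.4% of all windows. A match describes the letters of the window and does not show binding.

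Across the 6 arrays of the Utx experiment, 26 of the 32 members lay above the floor on at least 1 array. Of these, 10 were highest in the library labelled KO with DOX and 9 in WT MEFs without DOX. Another 4 peaked in the library labelled KO without DOX, 3 in Utx KO ESCs and 0 in WT ESCs or WT MEFs with DOX. The lowest value lay in Utx KO ESCs for 14 members and in WT MEFs with DOX for 8. How often all genes were highest or lowest on each array was not counted, so these counts are not shown to be particular to the members. The number of members above the floor was 21 in WT MEFs without DOX, 22 in each library labelled KO, 12 in WT MEFs with DOX, 14 in WT ESCs and 10 in Utx KO ESCs. It was 24 on the Nanog KO array, where 76.8% of all genes lay above the floor, against at most 63.4% on the other arrays. Mmp3, Mmp12, Mmp24, Mmp25, Adamts8 and Adamts16 stayed under the floor on all 7 arrays.

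**Figure D1:**
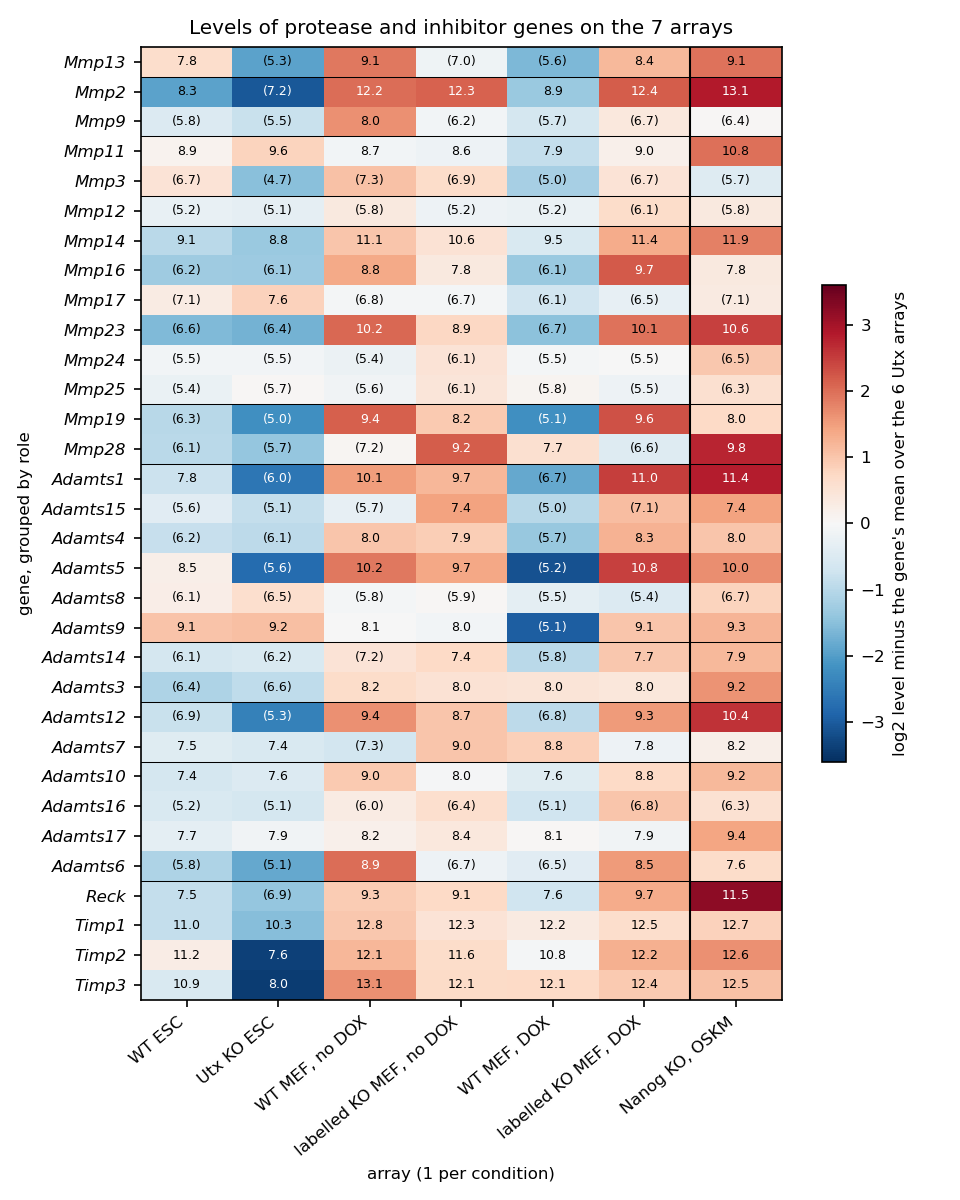
Deposited log2 value of each of the 32 members (rows, grouped by role) on the 7 arrays (columns); numbers in parentheses are at or below the floor of 7.34, and the colour gives the log2 level minus the gene's mean over the 6 Utx arrays. Timp1, Timp2 and Timp3 stayed above the floor on every array, while Adamts5 ranged from 5.20 in WT MEFs with DOX up to 10.80 where the label is KO with DOX.

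In ESCs, the inhibitor genes Timp2 and Timp3 and 4 proteases were lower in the Utx KO library, and none of the 28 proteases was 2-fold higher. Timp2, which inhibits Mmps and also takes part in the activation of the Mmp2 precursor, had 11.18 in WT ESCs against 7.56 in the KO, a difference of -3.62 or 12.3-fold. Timp3, which binds to the matrix and inhibits Adamts enzymes as well as Mmps, read 10.89 and 7.99, a difference of -2.89 or 7.43-fold. Both remained above the floor in the KO cells. Timp1 read 10.98 and 10.30, a difference of -0.68, and Reck read 7.47 and 6.95, a difference of -0.53. The 4 inhibitors were thus all lower in the KO library, but only Timp2 and Timp3 by 2-fold.

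The proteases that differed by 2-fold in ESCs were also lower in the KO library. Adamts5, an aggrecan-cutting enzyme, read 8.55 in WT and 5.56 in KO ESCs, which is at least 2.31-fold lower when the KO value is set to the floor. The collagenase Mmp13 read 7.83 and 5.27, at least 1.41-fold lower. Adamts1, which cuts versican and aggrecan, read 7.78 and 5.95, at least 1.36-fold lower. The gelatinase Mmp2 read 8.30 and 7.17, at least 1.95-fold lower. Each of these 4 lay above the floor in WT ESCs and below it in KO ESCs.

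Counted together, 6 of the 32 members were lower and 0 higher in Utx KO ESCs, with 15 members above the floor on either array. Over all genes above the floor, 3.18% were lower and 0.651% higher. The median difference was -1.79 over the 4 inhibitors, -0.11 over the 28 proteases and 0.03 over all genes. Only 11 of the 28 proteases lay above the floor in either ESC library, against all 4 inhibitors. Among the other proteases above the floor, Mmp14, the membrane-bound enzyme that activates Mmp2, read 9.13 and 8.76, and Adamts9, a versican-cutting enzyme, read 9.13 and 9.19. Mmp11, a furin-activated member of the stromelysin group, had the largest difference upwards at 0.66, reading 8.89 in WT and 9.56 in KO. Proteases under the floor in both ESC libraries included Mmp16 (6.17 in WT, 6.15 in KO), Mmp23 (6.56, 6.43), Adamts4 (6.21, 6.11) and Adamts6 (5.83, 5.08). Mmp19 (6.27, 5.05), Mmp28 (6.11, 5.68) and Adamts12 (6.94, 5.31) also stayed there. Utx KO ESCs held the highest value of the 6 Utx arrays for Mmp11, Mmp17 and Adamts9. With the floor at the 60th percentile, 3 members were lower (Timp2, Timp3 and Adamts5).

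Markers of other cells moved with these genes. Of the 11 fibroblast markers, 6 lay above the floor in WT ESCs and 1 in KO ESCs, 5 were 2-fold lower in KO, and their summed level was 11.91 in WT and 9.77 in KO ESCs on the log2 scale. Dpt, Lum, Pdgfra, Twist1 and Twist2 lay under the floor in both. All 6 smooth muscle markers were lower in KO, with a summed level of 13.35 in WT and 10.66 in KO. Of 10 epithelial markers, 3 were lower, and the summed level was 12.50 and 11.81. The summed level of the fibroblast markers was 14.92 in WT MEFs without DOX. The 13 macrophage markers had summed levels of 10.73 and 11.10, with 1 marker above the floor in each ESC library, and no marker was 2-fold apart. In RNA from whole cultures, fewer cells of a type and less RNA per cell cannot be told apart, and the part of these cells in the Timp2, Timp3 and protease values was not tested. Among the other genes of the pathway, 6 of 48 measured were lower and 1 higher. The lower ones were led by the collagen chains Col1a2 at -2.94 and Col1a1 at -2.71 and the hyaluronan receptor Cd44 at -2.61, and the higher one was the plasma protease inhibitor A2m at 1.08.

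**Figure D2:**
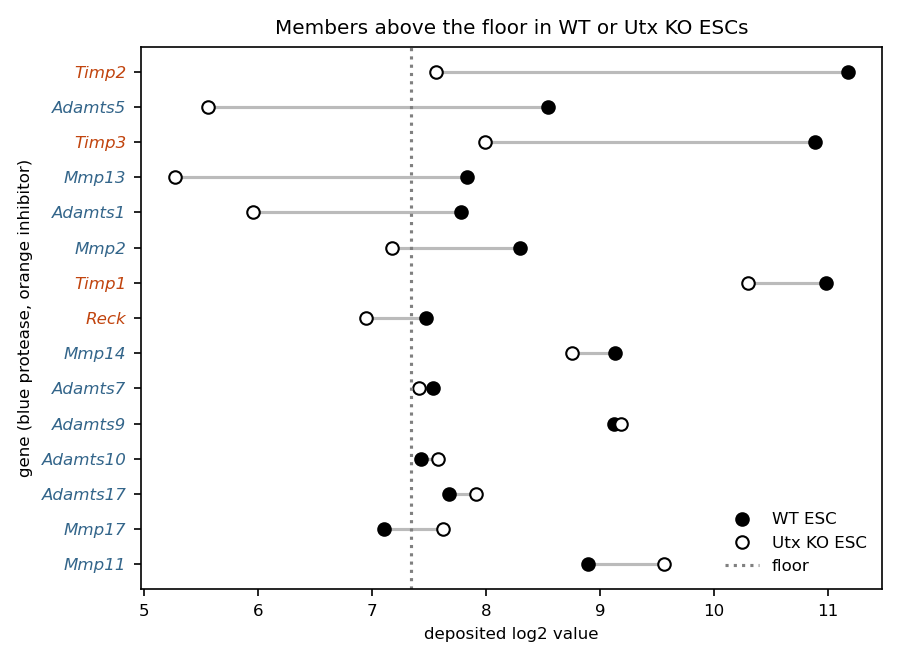
Deposited log2 values in WT ESCs (filled) and Utx KO ESCs (open) for the 15 members above the floor of 7.34 (dotted line) in either, ordered by difference, with 1 array each. The longest line belongs to Timp2 (11.18 and 7.56), and the lines of Adamts5, Mmp13, Adamts1 and Mmp2 cross the floor.

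WT MEFs with DOX had lower values than WT MEFs without DOX for 14 of the 28 proteases and 2 of the 4 inhibitors. Adamts5 read 10.23 without and 5.20 with DOX, a difference of -5.03 and at least 7.43-fold lower. Mmp19, a secreted enzyme of basement membrane proteins, read 9.40 and 5.06, and Mmp23, a membrane-bound enzyme, read 10.20 and 6.67, at least 4.18-fold and 7.25-fold lower. Mmp2 read 12.23 and 8.87, which is 10.3-fold lower with both values above the floor. In the same comparison 10 of 11 fibroblast markers and 13 of 13 macrophage markers were lower, 6 of 6 smooth muscle markers were lower, and 10 of 10 epithelial markers were higher. The summed level was 14.92 without and 12.03 with DOX for the fibroblast list and 14.42 and 11.48 for smooth muscle, and the part of these cells in the protease values was not tested.

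Further proteases followed the same direction. Mmp13 read 9.11 without and 5.60 with DOX, at least 3.41-fold lower, and Adamts1 read 10.06 and 6.69, at least 6.57-fold lower. Mmp16, a membrane-bound enzyme related to Mmp14, read 8.83 and 6.12, and Adamts12, which cuts the cartilage protein Comp, read 9.38 and 6.79. Adamts6 read 8.94 and 6.54, Adamts4, an aggrecan-cutting enzyme, read 8.03 and 5.69, and Adamts9 read 8.10 and 5.15. In all 7 of these genes the value with DOX lay under the floor. Mmp14 read 11.09 and 9.53, a difference of -1.56, and Adamts10, which acts on microfibrils, differed by -1.38 to 7.62, so that both stayed above it.

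The inhibitors remained above the floor with DOX. Timp1 read 12.80 without and 12.16 with DOX, a difference of -0.64, and Timp3 read 13.06 and 12.13, a difference of -0.93. Timp2 read 12.11 and 10.83, a difference of -1.29, and Reck read 9.26 and 7.61, a difference of -1.65. Timp2 and Reck were therefore 2-fold lower, and Timp1 and Timp3 were not. The median difference was -1.11 over the 4 inhibitors, -1.52 over the 28 proteases and 0.00 over all genes. Only 19 of the 28 proteases lay above the floor on either array, against all 4 inhibitors, so the 2 medians are not alike in level. Whether proteases and inhibitors differ in this response was not tested.

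A single member was 2-fold higher with DOX in WT MEFs. Adamts7, which cuts Comp, read 7.30 without and 8.82 with DOX, at least 2.79-fold higher. Mmp28, an Mmp of epithelia, read 7.15 and 7.65, a difference of 0.50. In all, 16 of 32 members were lower and 1 higher, with 23 above the floor on either array, against 13.7% and 11.9% of all genes above the floor. Of the 6 members lower in Utx KO ESCs, 5 (Adamts1, Adamts5, Mmp13, Mmp2 and Timp2) were also among the 16 lower with DOX in WT MEFs, which is 83.3% of the first list and 31.2% of the second, from 4 different arrays. Over all genes the shares were 52.7% and 11.0%, and 16 of the 23 members above the floor in the WT MEFs were lower with DOX.

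Mmp9, the second gelatinase, lay above the floor in WT MEFs without DOX alone, at 7.95. It read 5.69 in WT MEFs with DOX, 6.22 and 6.68 in the libraries labelled KO without and with DOX, 5.83 and 5.53 in WT and KO ESCs, and 6.37 on the Nanog KO array. The macrophage markers had a summed level in WT MEFs of 13.94 without and 10.04 with DOX. It was 10.88 and 12.13 in the libraries labelled KO without and with DOX and 13.40 on the Nanog KO array, where Mmp9 lay under the floor. Mmp12, a Mmp typical of macrophages, lay between 5.11 and 6.10 on all 7 arrays. The part of macrophages in the Mmp9 value was not tested.

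The genes around these proteases differed with DOX as well. Of 12 substrate genes, 10 were lower and 0 higher, led by Col3a1 at -4.88. Across the whole list, 21 of 48 measured were lower and 6 higher, and the plasminogen activator Plat at -4.52 and the membrane protease Adam12 at -4.51 followed Col3a1. The genes highest with DOX were Pcsk6, a proprotein convertase, at 1.87, Pcolce2, a procollagen C-proteinase enhancer, at 1.78 and the Ets factor Etv4 at 1.52. Of the 11 measured transcription regulators of the Fos, Jun and Ets families, 0 were lower and 3 were higher.

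In the MEFs labelled KO, the DOX comparison ran the other way for many of the same proteases. Mmp16 read 7.82 without and 9.68 with DOX, Adamts6 read 6.74 and 8.47, and Mmp19 read 8.20 and 9.55. All 3 lay above the floor with DOX. Mmp13 read 7.04 and 8.36, Adamts1 read 9.73 and 11.04, and Mmp23 read 8.90 and 10.10. Adamts9 read 8.02 and 9.10, and Adamts5 read 9.74 and 10.80, differences of 1.09 and 1.06. These 8 were the members higher with DOX in the MEFs labelled KO, and all 8 were among the 16 lower with DOX in WT MEFs, which is all of the first list and 50% of the second. Over all genes, 55.1% of those higher with DOX in the MEFs labelled KO were lower with DOX in WT MEFs, which is 26.2% of the latter.

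Mmp28 and Adamts7 were the members lower with DOX in the MEFs labelled KO. Mmp28 read 9.25 without and 6.60 with DOX, at least 3.76-fold lower, and Adamts7 read 8.98 and 7.79, a difference of -1.19. Mmp2 read 12.34 and 12.39, Mmp14 10.59 and 11.43, Adamts12 8.75 and 9.28, and Adamts4 7.93 and 8.30, all under 2-fold apart. Of the inhibitors, Timp1 read 12.32 and 12.46, Timp2 read 11.56 and 12.19, Timp3 read 12.10 and 12.36, and Reck read 9.06 and 9.67. All 4 differences, 0.14 to 0.63, were positive and under 2-fold. In total, 8 of 32 members were higher and 2 lower, with 24 above the floor, against 6.81% and 2.93% of all genes. With array medians aligned the members counted 6 and 2, and all genes 5.01% and 3.94%. Fibroblast markers were higher for 3 of 11 macrophage markers for 5 of 13 and smooth muscle markers for 3 of 6, and epithelial markers lower for 4 of 10, and their part was not tested.

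**Figure D3:**
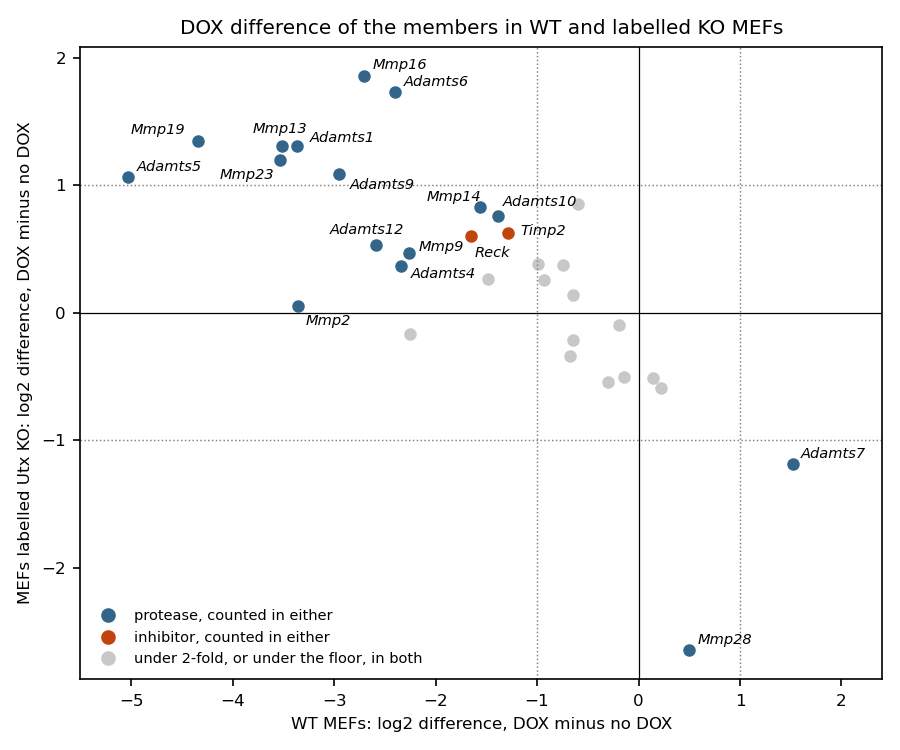
Log2 difference with DOX in WT MEFs (horizontal axis) against that in MEFs labelled Utx KO (vertical axis), 1 point per member, with dotted lines at 2-fold and labels on members counted as higher or lower in either; grey points were under 2-fold or under the floor in both. The 8 proteases in the upper left were lower with DOX in WT and higher in the MEFs labelled KO, and Adamts7 lies in the opposite corner.

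Set against the WT library without DOX, the library labelled KO without DOX had higher Mmp28, Adamts7 and Adamts15 and lower values of 6 proteases. Mmp28 read 7.15 in WT against 9.25, at least 3.76-fold higher, and Adamts7 read 7.30 and 8.98, at least 3.11-fold higher. Adamts15, a versican-cutting enzyme, read 5.67 and 7.42, which is just above the floor. Adamts15 also read 7.08 in the library labelled KO with DOX, 7.43 on the Nanog KO array, 4.99 in WT MEFs with DOX, and 5.57 and 5.11 in WT and KO ESCs.

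The 6 lower members in that comparison were Adamts6 at -2.20, Mmp13 at -2.06, Mmp9 at -1.74, Mmp23 at -1.30, Mmp19 at -1.20 and Mmp16 at -1.01. Thus 3 of 32 members were higher and 6 lower, with 25 above the floor, against 5.04% and 9.53% of all genes, or 6.99% and 7.07% with array medians aligned. The 4 inhibitors differed by -0.20 to -0.96 and had a median of -0.52. The protease median was -0.12 against 0.01 over all genes, and 0.02 against 0.14 with aligned medians. It lay below the median of all genes in both settings. Of the other genes of the pathway, 12 of 48 were lower and 0 higher, led by Adam8 at -2.66, Comp at -2.20 and the plasminogen activator Plau at -2.08. Macrophage markers were lower for 13 of 13, smooth muscle markers lower for 4 of 6, fibroblast markers lower for 2 of 11 and epithelial markers higher for 3 of 10 in the same comparison, and their part in the protease values was not tested.

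With DOX, the library labelled KO had higher values than the WT library for 15 of the 28 proteases. Adamts5 had 5.20 in WT against 10.80, at least 11.0-fold higher, and Adamts1 read 6.69 and 11.04, at least 13.0-fold higher. Mmp2 read 8.87 and 12.39, a difference of 3.52 or 11.5-fold. Mmp19 was at least 4.64-fold higher and Mmp23 at least 6.76-fold higher. Reck, at 2.06, and Timp2, at 1.36, were higher, and Timp1 and Timp3 differed by 0.31 and 0.23.

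Together 17 of 32 members were higher and 2 lower (Mmp28 at -1.05 and Adamts7 at -1.03), with 23 above the floor, against 14.3% and 12.1% of all genes. Of the lower ones, Mmp28 alone was left with aligned medians and 0 with quantile normalization. The protease median was 1.80 and the inhibitor median 0.83. Of the 12 substrate genes 11 were higher, led by Col3a1 at 4.82, and 10 of 11 fibroblast markers were higher while 10 of 10 epithelial markers were lower and 5 of 13 macrophage and 5 of 6 smooth muscle markers higher. This comparison uses the same WT array as the DOX comparison in WT MEFs.

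The library labelled KO with DOX was close to WT MEFs without DOX in whole profiles, at a correlation of 0.97, and the members were no exception. This comparison was added after the data were seen. In it 1 of 32 members was higher, Adamts9 at 1.01, and 1 lower, Mmp9 at -1.27, with 23 above the floor. Over all genes the shares were 1.88% and 2.63%, so the closeness is not particular to the members. The remaining members lay within 2-fold or under the floor, among them Mmp2 at 0.16 and Timp2 at 0.08. With medians aligned, 2 members were higher, Adamts9 at 1.03 and Adamts1 at 1.01. The library labelled KO without DOX, set against WT MEFs with DOX, had 14 members higher and 0 lower, with 22 above the floor. Over all genes the shares were 10.6% and 13.7%, or 13.1% and 11.2% with medians aligned. Adamts5 at 4.53, Mmp2 at 3.47 and Mmp19 at 3.15 had the largest differences there.

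Over the 6 Utx arrays, a limma fit with context and genotype as terms, adjusted by Benjamini-Hochberg over 10673 genes, called 0 of 26 members and 0% of all genes. At an unadjusted p under 0.05 it held 0 members and 1.76% of all genes. Without the MEF pair with DOX, 9 members had an unadjusted p under 0.05, and without the MEF pair lacking DOX 1 had, with 0 members called in limma after adjustment in either case. The share of all genes at that unadjusted cut-off was not computed for these reduced fits, so the member counts have nothing to be set against. In the fit over the 6 Utx arrays the residual, on 2 degrees of freedom, reflects how far the KO minus WT difference varied from one labelled context to another. It does not show how far repeat cultures vary. The MEF pairs follow the DOX labels, which the libraries labelled KO went against in Pou5f1. Both the residual and the counts therefore depend on those labels. Timp3 had the log2 difference with the smallest p among the members, at -1.21 ± 0.62 (SE; limma adjusted p = 0.995), and it was lower in the KO library of 2 of 3 pairs. Timp2 had -0.94 ± 0.98 and Adamts5 0.71 ± 1.72, with adjusted p = 0.995 for both in limma. Of the 26 members, Adamts14, a procollagen N-proteinase, was the one with the same sign in all 3 pairs, at 0.09, 0.20 and 1.94. Its values lay under the floor in WT and KO ESCs, at 6.09 and 6.18, and in WT MEFs without DOX, at 7.24. How often all genes had the same sign in all 3 pairs was not counted, so this too has nothing to be set against.

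Fewer of these genes lay above the floor in WT ESCs (14) than in WT MEFs without DOX (21), though WT MEFs with DOX had 12. Against WT MEFs without DOX, WT ESCs had lower Mmp2 (8.30 against 12.23, 15.2-fold), Mmp23 (at least 7.25-fold), Mmp19 (at least 4.18-fold) and Adamts6 (at least 3.02-fold). Mmp14 differed by -1.96 and Adamts12 by -2.44. Of the inhibitors, Timp3 differed by -2.17, Timp1 by -1.82 and Reck by -1.79, and Timp2 by -0.94. Adamts9, at 9.13 in ESCs and 8.10 in MEFs, was the member that was higher, by 1.03.

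Altogether 17 of 32 members were lower and 1 higher in WT ESCs, with 22 above the floor, against 19.8% and 14.5% of all genes. The median difference was -1.80 over the inhibitors and -1.21 over the proteases. For Adamts9, all 6 array rows were higher in ESCs, by 0.47 to 1.03, and all 6 were lower with DOX in WT MEFs, by -1.06 to -2.95. The comparison shares the WT MEF array without DOX with those on DOX and genotype. Of the pathway genes 32 of 48 were lower and 3 higher, led downwards by the proteoglycan Dcn at -5.82 and upwards by the Ets factor Etv5 at 2.56. Fibroblast markers were lower for 11 of 11, macrophage markers for 12 of 13 and smooth muscle markers for 5 of 6, and epithelial markers were higher for 6 of 10.

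The Nanog KO fibroblasts carrying OSKM had high values of many members, on an array on which the median gene differed from WT MEFs with DOX by 0.76. Mmp2 read 13.08, Adamts1 11.36 and Mmp14 11.90 there, each the highest of the 7 arrays for its gene as deposited. With medians aligned none of these 3 was the highest: Mmp2 had 12.43 against 12.56 in the library labelled KO without DOX, and Adamts1 had 10.70 against 11.15 and Mmp14 11.25 against 11.54 in the one with DOX. Reck read 11.54, against 9.67 or less on the other 6 arrays, and Mmp28 read 9.82 and Mmp11 10.75. Among the inhibitors, Timp1 read 12.66, Timp2 12.55 and Timp3 12.47. Of the proteases under the floor in WT MEFs with DOX, Mmp13 read 9.15, Mmp23 10.60, Adamts5 10.03, Adamts9 9.32 and Adamts12 10.35. Mmp16 at 7.82, Mmp19 at 7.98, Adamts4 at 8.05 and Adamts6 at 7.59 lay within 1 log2 unit above the floor as deposited. With medians aligned, Mmp16 at 7.16, Mmp19 at 7.32 and Adamts6 at 6.94 lay under the aligned floor of 7.33.

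Against WT MEFs with DOX, 21 of 32 members were higher and 0 lower, with 24 above the floor, against 37.2% and 5.53% of all genes. With array medians aligned, 12 were higher and 1 lower, Adamts7 at -1.38, against 13.1% and 13.3%. The aligned differences were 4.09 for Adamts5, 3.92 for Adamts1, 3.47 for Mmp2, 3.44 for Adamts9, 3.20 for Reck and 3.19 for Mmp23. The protease median was 1.92 as deposited and 1.18 aligned, and the inhibitor median 1.11 and 0.37. As deposited, 10 of 11 fibroblast, 11 of 13 macrophage and 2 of 6 smooth muscle markers were higher and 10 of 10 epithelial markers lower. The Nanog KO array differs from the WT MEF arrays in cell line and in factor delivery too, and these cannot be told apart from the genotype.

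Against WT MEFs without DOX, a comparison added after the data were seen, the Nanog KO array had 3 members higher and 6 lower with medians aligned, against 9.41% and 11% of all genes. The higher ones were Mmp28 at 1.93, Reck at 1.54 and Mmp11 at 1.36. The lower ones were Mmp9 at -2.33, Mmp3 at -2.28, Mmp19 at -2.17, Adamts6 at -2.09, Mmp16 at -1.75 and Timp3 at -1.33. Mmp3 was counted because alignment set it at 7.36 in WT MEFs without DOX, just above the aligned floor, whereas its deposited values were all under the floor. As deposited the counts were 7 and 4, against 35.1% and 3.72%, and Timp3 differed by -0.59. Of 13 macrophage markers 11 lay above the floor on this array and Fcgr3 and Itgam did not.

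**Figure D4:**
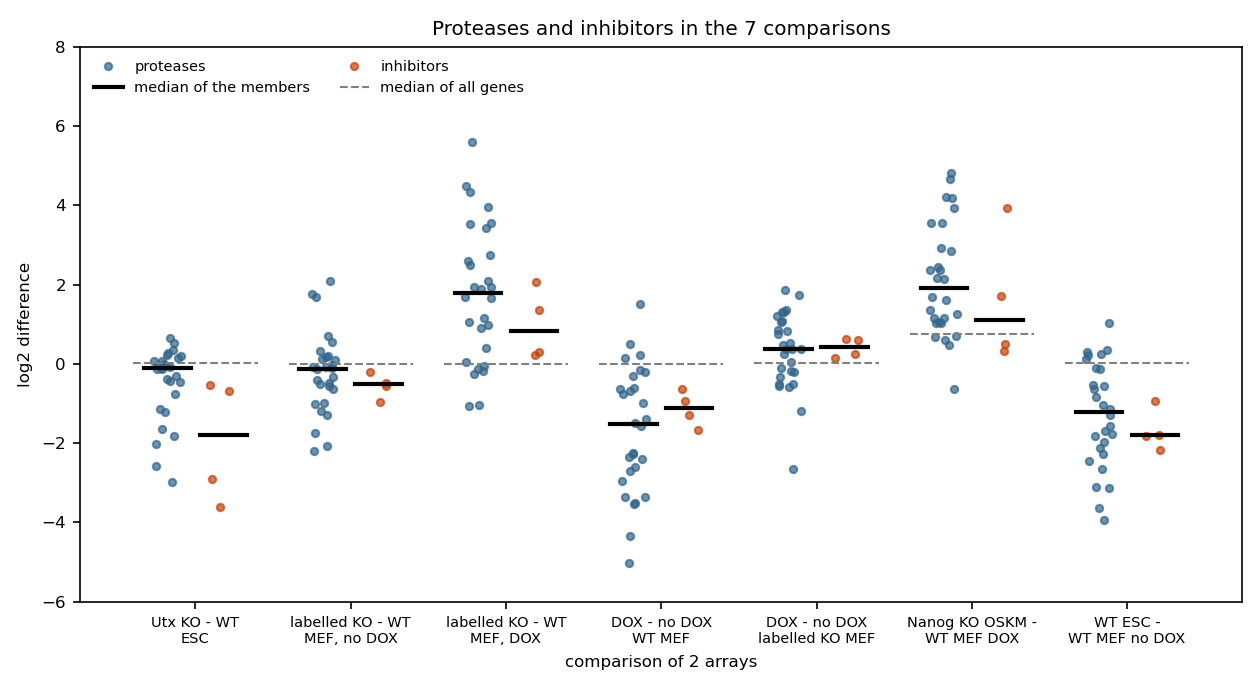
Log2 difference of each protease (blue, 28 genes) and inhibitor (orange, 4 genes) in 7 comparisons of 2 arrays as deposited, with bars at the medians of the members and a dashed line at the median of all genes. The inhibitor median lies furthest below the protease median in ESCs (-1.79 against -0.11), and the all-gene median is 0.76 in the Nanog KO comparison.

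The remaining members above the floor varied less over the 6 Utx arrays. Mmp17, a membrane-anchored Mmp, ranged from 6.11 in WT MEFs with DOX to 7.63 in KO ESCs. Adamts14 was lowest in WT MEFs with DOX, at 5.76, and highest in the DOX library labelled KO, at 7.70. Adamts17, which acts on microfibrils, ranged from 7.67 to 8.39. Adamts3, a procollagen N-proteinase with 12 array rows, ranged from 6.42 in WT ESCs to 8.19 in WT MEFs without DOX. All 12 rows were lower in WT ESCs than in those MEFs, by -0.76 to -2.80, and their signs were mixed between the genotypes in ESCs and with DOX in WT MEFs.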

How the data were processed

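RNA of 7 mouse samples was hybridised to 1 Affymetrix array each, and samples were grouped by the labels. The deposited values are log2 and come from RMA in Affymetrix Expression Console, according to the submitters' processing notes (per the labels). Neither a version nor a build is given in the sources used here. All 21811 rows had values. GEO's platform annotation gave 1 symbol for 14894 rows. It gave several for 925, which were dropped, and listed no entry for 5992. The members and the lists of pathway genes and markers were chosen with earlier results of these data known. All members and the list genes with the 3 largest differences in each direction may be named, and all levels are given for inhibitors and for members with a 4-fold range over the Utx arrays. Differences, counts and medians were computed with Python 3.11.15, numpy 2.4.6 and pandas 2.3.3, and figures with matplotlib 3.10.9. The fit used limma 3.58.1 in R 4.3.3 (lmFit, eBayes with a trend, adjusted p at 0.05) and was tested on simulated data. In the simulated data the KO shift was the same in every context, unlike the differences of many members here. The simulation therefore does not show what the fit could detect on these arrays. A lower side under the floor was set to the floor for folds given as at least. Medians over the proteases and over all genes include genes under the floor on both arrays. Summed marker levels are log2 of the sum of linear values. The neutrophil list had 0 of 7 markers measured and the endothelial list 2 of 5. Arrays give no read depth, and 1 array per condition limits the precision.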

Additional observations from a re-analysis of the deposited data

Results flagged for a closer look

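For 9 members the DOX difference was 2-fold or more in WT MEFs and 2-fold or more the other way in the MEFs labelled KO. With medians aligned, Adamts5 at 0.95 and Adamts9 at 0.97 were under 2-fold in the MEFs labelled KO. The difference of the 2 effects, labelled KO minus WT, was 6.09 for Adamts5, 5.70 for Mmp19, 4.83 for Mmp13, 4.73 for Mmp23, 4.67 for Adamts1, 4.56 for Mmp16, 4.13 for Adamts6 and 4.04 for Adamts9. It was -2.71 for Adamts7. Adamts7 lay under the floor in WT MEFs without DOX, and every other member named here did so in WT MEFs with DOX. Such values were used as deposited and not set to the floor, so the sizes are uncertain. With 1 array per condition these differences were not tested, and the libraries labelled KO went against their DOX labels in Pou5f1.

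The genotype difference also turned between contexts. From ESCs, where the KO value was lower, to MEFs with DOX, where the value labelled KO was higher, it changed by 8.58 for Adamts5, 6.17 for Adamts1, 5.33 for Mmp13, 4.98 for Timp2 and 4.65 for Mmp2. From MEFs without to MEFs with DOX it changed by 5.70 for Mmp19, 4.83 for Mmp13, 4.73 for Mmp23, 4.56 for Mmp16 and 4.13 for Adamts6, and by -3.15 for Mmp28 and -2.71 for Adamts7, the same 4 arrays as in the DOX comparisons. In KO ESCs and WT MEFs with DOX, Adamts5 read 5.56 and 5.20, Mmp13 5.27 and 5.60, and Adamts1 5.95 and 6.69, all under the floor. Mmp2 lay under it in KO ESCs, at 7.17. Mmp19, Mmp23, Mmp16 and Adamts6 lay under it in WT MEFs with DOX, and Mmp28 and Adamts7 in WT MEFs without DOX. None of these values was set to the floor, so the sizes of the changes are uncertain. These differences were not tested either, and all of them depend on the DOX labels of the MEF libraries labelled KO.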

How the results depend on the processing

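Over the 7 comparisons, 100 member differences were counted as 2-fold. Each was recomputed with aligned medians, quantile normalization and the mean over a gene's rows. Of these 300 values, 29 were no longer counted, being under 2-fold or under the floor. The sign changed in 0 of 300, which is no check. Each difference was 2-fold or more, and aligning medians shifts a comparison by less than 2-fold. Moreover, 29 of the 32 members had a single row, which the mean over rows leaves unchanged. The Nanog KO comparison depended most on scaling. With aligned medians it had 12 members higher and 1 lower, a protease median of 1.18 and an inhibitor median of 0.37, and with quantile normalization 13 and 1, with medians of 1.16 and 0.37. At a threshold of 1.5-fold it had 1 member lower. In ESCs, 3 members were lower with the floor at the 60th percentile, and 1 was higher at 1.5-fold. In MEFs with DOX, the members lower in the library labelled KO numbered 1 with aligned medians, 0 with quantile normalization and 1 with the floor at the 60th percentile. With the mean over rows, 0 members were higher in WT ESCs than in WT MEFs. The other counts in these 7 comparisons stayed within 1.5 times and their other medians moved by under 0.2. Among these, the protease median in MEFs without DOX turned from -0.12 to 0.02 with aligned medians and with quantile normalization. The median of all genes rose there too, from 0.01 to 0.14 with aligned medians and to 0.12 with quantile normalization. In limma, 0 members were called under each of the 9 alternatives, and without the MEF pair with DOX, 4 of 10158 genes were. The limma fit pairs KO with WT by context, and no replicate block was fitted, since each group has 1 array and the labels give no replicate numbers.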
